A study of Homo sapiens with 6 samples.

Results

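The genes of the urea cycle and of amino acid catabolism were examined in Hep3B cells, an established human hepatocellular carcinoma line. The set of 39 genes was taken by gene symbol from the 23228 genes counted, and 34 of the 39 passed the filter on low counts and were tested. Most of those that changed had lower values in the PELP1-KD group. Of the 34, 21 were lower (61.8%) and 5 were higher (14.7%) at an adjusted p below 0.05 (edgeR), and 8 did not pass the test. Of all 14537 genes tested, 26.8% were lower and 26.8% were higher. The 21 include TDO2, which passed the filter only through the control libraries.

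The liver is the main site where amino acids are broken down. Their nitrogen is passed by aminotransferases to glutamate and aspartate, and the urea cycle turns the ammonia into urea for excretion. Their carbon skeletons enter central metabolism through short dedicated pathways, each named after its amino acid. Several of the enzymes are hallmarks of differentiated hepatocytes.

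RNA-seq was performed on 3 libraries of control cells, which carried a nontargeted shRNA, and on 3 libraries labelled PELP1-KD, all of the Hep3B line, whose source label is liver. PELP1 is a scaffolding protein that acts as a coregulator of nuclear receptors, and the comparison asks which genes change when it is knocked down. An shRNA, a hairpin processed by the cell into a small interfering RNA, lowers the mRNA it pairs with. It was delivered by lentivirus to cells grown in RPMI medium, and puromycin-resistant clones were pooled, so each group is a pool of stable clones and not a single clone. By title, the PELP1-KD libraries carried shRNA 1 against PELP1, whereas the treatment protocol names both shRNAs of the study, so which one was used is uncertain. The labels do not say that the 3 libraries of a group came from separate cultures, so the p values measure only the spread between these libraries, which may be technical.

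The libraries held 26758180 to 34456393 reads on genes. The targeted gene did not pass the test at the RNA level. The study reported reduced PELP1 protein by Western blot in PELP1-KD Huh7 and Hep3B cells, which is a different measure. For PELP1 there were 5338, 5127 and 5348 reads in control and 4318, 4135 and 4846 in PELP1-KD. After scaling to library size the mean was 4970 ± 115 normalized reads (SD, n = 3) in control and 4695 ± 238 (SD, n = 3) in PELP1-KD, which is 94.5% of control. Every PELP1-KD value lay below every control value, as for 29.3% of all tested genes. The log2 fold change was -0.08 with a standard error (SE) of 0.041 and an adjusted p of 0.101 from edgeR. It was -0.08 with an adjusted p of 0.0106 when the replicate number was used as a block, and -0.10 with an adjusted p of 0.018 without PELP1-KD replicate 3. Directions below are therefore those of the libraries labelled PELP1-KD. Replicate 3 of both groups stood apart from replicates 1 and 2 in the same way, and counts without each library are given with the limits.

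The share of all genes that passed the test was large, and the count of members has to be read against it. The members were chosen with earlier results of these data known. Of the 14537 genes tested, 53.6% passed an adjusted p below 0.05 in either direction, 26.8% lower and 26.8% higher. Among the 34 tested members 61.8% were lower and 14.7% were higher. The median log2 fold change of the tested members was -0.26, with a range from -2.23 to 1.06, and that of all tested genes was 0.00. Of the members 25 lay below zero (73.5%), and of all tested genes 49.3%. The groups did not overlap in normalized reads, with PELP1-KD lower, for 23 members (67.6%), and the background was 29.3% of all tested genes. They did not overlap with PELP1-KD higher for 3 members (8.82%), against 29.5%. At a change of at least 2-fold, 5 members were lower (14.7%) and 1 was higher (2.94%), where 4.79% and 2.85% of all tested genes were, 7.65% in either direction. At least 1.5-fold, 8 were lower and 1 was higher, against 8.02% and 6.67% of all tested genes. Both the 8 and the 61.8% include TDO2, which passed the filter only through the control libraries. With a filter of at least 10 reads in every library, 20 members were lower at an adjusted p below 0.05. Together the 39 genes took 0.305% to 0.307% of the reads on genes in control and 0.271% to 0.275% in PELP1-KD. In a bulk sample fewer cells of a type and less RNA per cell cannot be told apart.

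**Figure D1:**
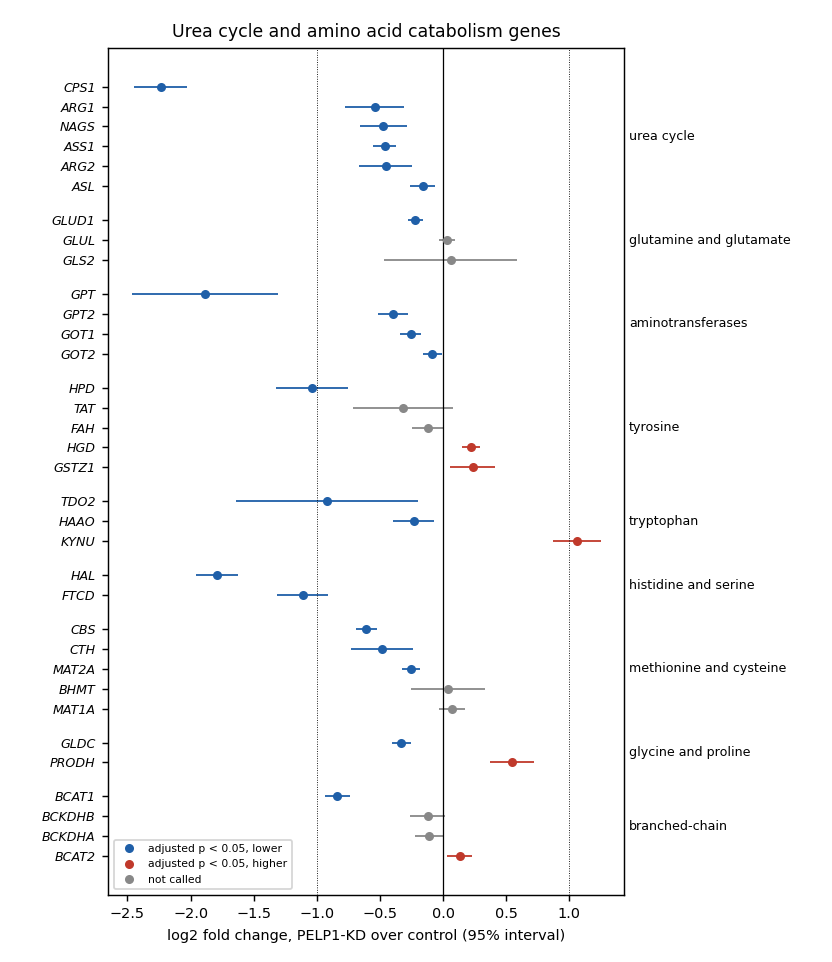
Log2 fold change of PELP1-KD over control for the 34 tested genes, grouped by pathway and ordered within each, with points for the estimate, bars for the 95% interval and dotted lines at a 2-fold change. CPS1, GPT, HAL, FTCD and HPD lie left of the lower line and KYNU lies right of the upper one.

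In the urea cycle all 6 tested members were lower in PELP1-KD, where 26.8% of all tested genes were. CPS1 had the largest log2 fold change, in size, of the 34 tested members. CPS1 makes carbamoyl phosphate from ammonia in the mitochondrion, the entry step of the cycle. The gene lies at chr2:211342406-211543831 (hg19, plus strand), and reads were counted over its exons, as for all genes here. It had 522, 432 and 466 reads in control and 86, 89 and 93 in PELP1-KD. Every PELP1-KD library was far below every control library, with a mean of 445.7 ± 32.3 normalized reads (SD, n = 3) in control and 94.9 ± 8.1 (SD, n = 3) in PELP1-KD, or 21.3% of control. The log2 fold change was -2.23 (SE 0.1, adjusted p = 3.231e-13, edgeR).

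The other members of the cycle differed by less. NAGS, which makes the allosteric activator of CPS1, had 326, 357 and 346 reads in control and 234, 182 and 246 in PELP1-KD, a log2 fold change of -0.47 (adjusted p = 0.0001764, edgeR). ASS1, which joins citrulline to aspartate, had 3007, 2824 and 2978 reads in control and 1922, 1675 and 2110 in PELP1-KD. Its log2 fold change was -0.46 (adjusted p = 3.043e-08, edgeR). ASL, which splits the product into arginine and fumarate, had the smallest change of the 6, -0.16 (adjusted p = 0.0055, edgeR), and without PELP1-KD replicate 2 its adjusted p was 0.0501. OTC, which makes citrulline, was close to absent in these cells, with 7, 2 and 4 reads in control and 1, 4 and 4 in PELP1-KD, and it was not tested. The ratio of its summed reads in PELP1-KD to those in control was 0.777, with an exact 95% interval of 0.293 to 1.97 that covers counting error only.

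The cycle was thus expressed very unevenly along its steps. In reads per kilobase of exon per 1e+06 reads (RPKM), the mean level in control was 47.9 for ASL and 47.7 for ASS1, 6.06 for ARG1, 4.97 for NAGS, 2.3 for CPS1 and 0.0782 for OTC. In PELP1-KD the level was 42.7 for ASL, 34.6 for ASS1 and 0.49 for CPS1. The cytosolic steps that make and split argininosuccinate stood far above the mitochondrial ones in both groups.

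Arginase splits arginine into urea and ornithine, and both of its genes were lower. ARG1, the cytosolic enzyme of the liver (chr6:131894365-131905468, plus strand), had 320, 293 and 265 reads in control and 219, 138 and 181 in PELP1-KD. The mean was 275.7 ± 20.8 normalized reads (SD, n = 3) in control and 188.7 ± 32.3 (SD, n = 3) in PELP1-KD, with a log2 fold change of -0.54 (SE 0.11, adjusted p = 0.0003641, edgeR). ARG2, the mitochondrial enzyme found in many tissues (chr14:68086579-68118436, plus strand), had 271, 240 and 239 reads in control and 184, 136 and 168 in PELP1-KD. Its log2 fold change was -0.45 (SE 0.0998, adjusted p = 0.0007392, edgeR). For both genes all PELP1-KD values lay below all control values after scaling.

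Nitrogen passes through glutamate and glutamine, and of the 3 members here 1 was lower (33.3%), near the 26.8% of all tested genes. GLUD1, glutamate dehydrogenase, releases ammonia from glutamate. It had the highest level of the set, 214 RPKM in control and 184 in PELP1-KD, and a log2 fold change of -0.22 (adjusted p = 3.255e-06, edgeR). GLUL, glutamine synthetase, had 16525, 15850 and 15894 reads in control and 15097, 13601 and 15198 in PELP1-KD, and the groups overlapped after scaling. Its log2 fold change was 0.03 with a 95% interval of -0.03 to 0.10 (adjusted p = 0.408, edgeR). GLS2, the liver-type glutaminase, had 23 to 31 reads in control and 24 to 27 in PELP1-KD, and its wide interval, -0.46 to 0.59, reflects those few reads. The counts of GLUD1 were whole numbers in 0 of 6 libraries and those of GLUL in 1 of 6. Some reads shared with other places or genes thus entered them, and their values are less certain. The amount of such reads was not measured. The same limit holds for other abundant members, such as ASL, HGD, MAT2A and CBS, with whole counts in 4 of 6 libraries each.

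Aminotransferases move the amino group onto a keto acid, and all 4 members were lower in PELP1-KD, where 26.8% of all tested genes were. GPT, the cytosolic alanine aminotransferase (chr8:145729465-145732555, plus strand), had 54, 97 and 87 reads in control and 13, 24 and 20 in PELP1-KD. Its groups did not overlap, although control replicate 1 was well below the other two. The mean was 75.2 ± 22.8 normalized reads (SD, n = 3) in control and 20.4 ± 7.36 (SD, n = 3) in PELP1-KD, with a log2 fold change of -1.89 (SE 0.277, adjusted p = 9.725e-06, edgeR).

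GPT2, its mitochondrial counterpart (chr16:46918308-46965201, plus strand), was the more abundant of the pair, at 10.5 RPKM against 1.27 for GPT in control. It had 1523, 1446 and 1447 reads in control and 962, 885 and 1145 in PELP1-KD, with a mean of 1387 ± 8.02 and 1054 ± 81.4 normalized reads (SD, n = 3 each). The log2 fold change was -0.40 (SE 0.0553, adjusted p = 5.378e-06, edgeR). For GPT2 too every PELP1-KD value lay below every control value.

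The aspartate aminotransferases also feed the urea cycle, since aspartate brings in its second nitrogen. GOT1, the cytosolic form (chr10:101156627-101190530, minus strand), had 3310, 3056 and 3228 reads in control and 2483, 2102 and 2567 in PELP1-KD. Its mean was 3014 ± 77.1 and 2520 ± 58.9 normalized reads (SD, n = 3 each), and its log2 fold change was -0.26 (SE 0.0409, adjusted p = 2.412e-05, edgeR). GOT2, the mitochondrial form (chr16:58741035-58768246, minus strand), had 6912, 6908 and 6855 reads in control and 5821, 5328 and 6192 in PELP1-KD. The difference was small, from 6499 ± 147 to 6120 ± 140 normalized reads (SD, n = 3 each), with a log2 fold change of -0.09 (SE 0.0358, adjusted p = 0.0481, edgeR). That call was lost when 1 library was left out, with adjusted p values of 0.0581 to 0.179 from edgeR without control replicate 1, 2 or 3 or PELP1-KD replicate 1 or 2. Whole counts of GOT2 were found in 1 of 6 libraries, so shared reads enter its value as well.

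Tyrosine breakdown runs through 5 enzymes, and its members moved in both directions. HPD, the second enzyme (chr12:122277433-122326517, minus strand), had 140, 147 and 140 reads in control and 63, 54 and 68 in PELP1-KD. The values in each group lay close together and far from the other group, with 134.3 ± 6.31 and 65.1 ± 2.52 normalized reads (SD, n = 3 each). The log2 fold change was -1.04 (SE 0.136, adjusted p = 2.379e-06, edgeR).

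The steps after HPD were higher or did not pass the test. HGD, which opens the aromatic ring of homogentisate, was among the most abundant members at 90.3 RPKM in control and 105 in PELP1-KD. Its log2 fold change was 0.22 (adjusted p = 2.302e-05, edgeR), and every PELP1-KD value lay above every control value. GSTZ1, which isomerizes maleylacetoacetate, had a log2 fold change of 0.23 (adjusted p = 0.0248, edgeR) with groups that overlapped. DESeq2 gave GSTZ1 an adjusted p of 0.0648, and without control replicate 1 or 2 or PELP1-KD replicate 2 or 3 edgeR gave 0.0514 to 0.134. FAH, the last enzyme, had a log2 fold change of -0.12 with an interval of -0.24 to 0.01, and an adjusted p of 0.0484 from edgeR without PELP1-KD replicate 2. TAT, the first and rate-limiting enzyme, had 59, 60 and 53 reads in control and 43, 35 and 45 in PELP1-KD, and although the groups did not overlap, its log2 fold change of -0.32 had an interval of -0.71 to 0.07 (adjusted p = 0.165, edgeR).

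Of the enzymes of the kynurenine pathway of tryptophan, KYNU was higher while TDO2 and HAAO were lower. KYNU, kynureninase, cleaves the side chain of kynurenine and of its hydroxylated form (chr2:143635195-143799885, plus strand). It had 250, 250 and 209 reads in control and 441, 439 and 431 in PELP1-KD, so that every PELP1-KD library was above every control library. The mean was 222.7 ± 20.9 normalized reads (SD, n = 3) in control and 464.7 ± 42.5 (SD, n = 3) in PELP1-KD, and the log2 fold change was 1.06 (SE 0.0905, adjusted p = 6.796e-09, edgeR). It was the only one of the 34 tested members at least 2-fold higher, and the log2 fold change was 0.988 without control replicate 3 and 0.985 without PELP1-KD replicate 2, just under 2-fold.

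TDO2, the liver enzyme that opens the pathway (chr4:156824847-156841550, plus strand), was near the limit of detection. It had 18, 21 and 23 reads in control and 9, 12 and 8 in PELP1-KD, which are 19.5 ± 2.77 and 10.4 ± 3.18 normalized reads (SD, n = 3 each). The log2 fold change was -0.92 (SE 0.344, adjusted p = 0.0305, edgeR). TDO2 passed the filter only through the control libraries, DESeq2 gave it an adjusted p of 0.137, and without control replicate 2 or 3 or PELP1-KD replicate 1 or 3 edgeR gave 0.0747 to 0.116. HAAO, a dioxygenase late in the pathway, had a log2 fold change of -0.23 (adjusted p = 0.0157, edgeR), with an adjusted p of 0.0511 without control replicate 3 and 0.109 without PELP1-KD replicate 2. KMO, which hydroxylates kynurenine, was not tested and had 15, 1 and 6 reads in control and 8, 6 and 19 in PELP1-KD, with a ratio of summed reads of 1.68 (exact 95% interval 0.953 to 3.03). The libraries of each group of KMO differed widely among themselves.

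Histidine is broken down in the liver to glutamate by 4 enzymes, and both tested members among them were lower by more than 2-fold. Of all tested genes 4.79% were at least 2-fold lower at an adjusted p below 0.05. HAL, histidase, removes ammonia from histidine in the first step (chr12:96367142-96390071, minus strand). It had 614, 579 and 638 reads in control and 158, 142 and 171 in PELP1-KD. The mean was 575.5 ± 29 normalized reads (SD, n = 3) in control and 166.1 ± 4.53 (SD, n = 3) in PELP1-KD, 28.9% of control. The log2 fold change was -1.79 (SE 0.0809, adjusted p = 3.713e-13, edgeR).

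FTCD, the last enzyme, passes the formimino group to tetrahydrofolate (chr21:47556176-47575481, minus strand). It had 356, 322 and 353 reads in control and 153, 113 and 160 in PELP1-KD. With 323.9 ± 14.2 and 149.4 ± 15.3 normalized reads (SD, n = 3 each) its log2 fold change was -1.11 (SE 0.0968, adjusted p = 8.988e-09, edgeR). For both HAL and FTCD the groups lay far apart.

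UROC1, urocanate hydratase, follows HAL and did not pass the filter. It had 7, 3 and 5 reads in control and 0 in every PELP1-KD library. Set against a floor of 3 reads over the group, this is at least 4.45-fold lower in PELP1-KD, from very few reads. Fitted without a filter, UROC1 had an adjusted p of 0.002536 in edgeR. AMDHD1, the remaining enzyme of the pathway and a related gene that is no member, had 373, 346 and 368 reads in control and 153, 158 and 169 in PELP1-KD, with a log2 fold change of -1.01 (SE 0.0903, adjusted p = 1.295e-08, edgeR). All 4 genes of the histidine pathway therefore had lower values in every PELP1-KD library than in any control library. The same held for 29.3% of all tested genes, and for UROC1 it rests on very few reads. SDS, serine dehydratase, was not tested and had 3, 7 and 2 reads in control and 0, 2 and 0 in PELP1-KD, a ratio of summed reads of 0.187 (exact 95% interval 0.0203 to 0.84).

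The sequences just before the starts of the 3 histidine members and of KYNU are given because these genes had large differences in opposite directions. They were chosen after the values had been seen. Each is the 250 bases upstream of the RefSeq start (table of GRCh38.p14), placed by an exact and unique match on GRCh37, the sequence of hg19, and printed 5′ to 3′ on the strand of the gene. Capitals mark any match, on either strand, to 6 motifs: TATAAA, found just before the start of many tissue-specific genes, CCAAT, the box bound by the factor NF-Y, GGGCGG, bound by SP1, CACGTG, the E-box, TTGCNNAA, a C/EBP-type site, and CAAAGTCCA, an HNF4-type site. The windows lie at chr12:96390123-96390372 for HAL, chr3:126236617-126236866 for UROC1, chr21:47575494-47575743 for FTCD, all on the minus strand, and chr2:143634983-143635232 for KYNU, on the plus strand.
HAL: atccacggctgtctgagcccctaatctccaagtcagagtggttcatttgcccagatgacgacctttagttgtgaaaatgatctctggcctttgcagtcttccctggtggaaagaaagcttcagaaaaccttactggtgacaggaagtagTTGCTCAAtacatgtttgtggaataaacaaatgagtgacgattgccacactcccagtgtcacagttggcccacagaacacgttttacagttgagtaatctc
UROC1: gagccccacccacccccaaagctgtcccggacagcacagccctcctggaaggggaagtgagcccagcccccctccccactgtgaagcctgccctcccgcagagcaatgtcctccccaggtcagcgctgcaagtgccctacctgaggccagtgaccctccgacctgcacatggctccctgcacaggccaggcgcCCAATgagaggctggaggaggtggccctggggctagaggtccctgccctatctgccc
FTCD: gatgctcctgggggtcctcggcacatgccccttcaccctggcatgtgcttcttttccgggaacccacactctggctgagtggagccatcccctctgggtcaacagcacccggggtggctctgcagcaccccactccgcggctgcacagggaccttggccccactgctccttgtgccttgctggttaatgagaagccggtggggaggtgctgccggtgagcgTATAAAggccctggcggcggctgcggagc
KYNU: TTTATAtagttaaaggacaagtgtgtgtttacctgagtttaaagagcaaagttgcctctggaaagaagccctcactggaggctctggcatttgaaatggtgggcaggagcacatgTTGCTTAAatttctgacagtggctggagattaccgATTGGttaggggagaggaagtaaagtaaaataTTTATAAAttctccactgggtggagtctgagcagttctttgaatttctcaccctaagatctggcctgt

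FTCD carried a TATAAA match 29 to 24 bases before its start, and UROC1 a CCAAT match 57 to 53 bases before. HAL carried the C/EBP-type match 101 to 94 bases before its start. KYNU held that motif too, 135 to 128 bases before, a CCAAT match at 100 to 96, and 3 TATAAA matches, of which those at 68 to 63 and 66 to 61 overlap on opposite strands. The RefSeq start lies upstream of the first counted base by 51 bases for HAL and by 12 for FTCD. UROC1 has both at the same base. For KYNU the RefSeq start lies 38 bases inside the counted gene, so distances shift with the start used. Such matches are common. A TATAAA match was found in 10.7% of all 35116 windows of this length and in 22.2% of the 45 windows of the 33 members that the table held, CCAAT in 32% and 46.7%, GGGCGG in 42.6% and 55.6%, CACGTG in 6.34% and 6.67%, TTGCNNAA in 9.05% and 8.89%, and CAAAGTCCA in 0.325% and 2.22%.

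**Figure D2:**
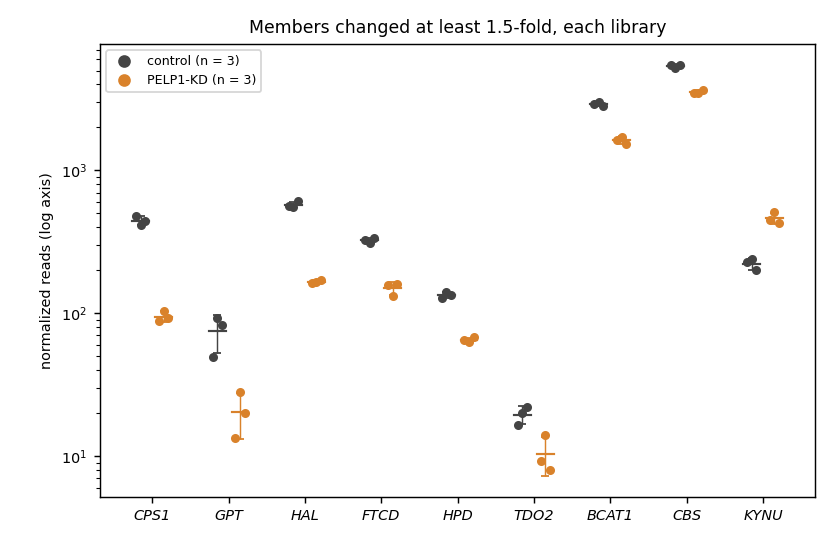
Normalized reads on a log axis in each of the 6 libraries for the 9 members changed at least 1.5-fold at an adjusted p below 0.05, with the mean (line) and SD (bar) of control (n = 3, grey) and PELP1-KD (n = 3, orange). The groups are apart for all 9 genes, which were picked for that change, and 58.8% of all tested genes had groups that did not overlap. KYNU is the only one of the 9 higher in PELP1-KD, and GPT and TDO2 have the widest spread.

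Methionine is activated to S-adenosylmethionine, the methyl donor of the cell, and its sulfur is passed on to cysteine. Of the 5 tested members 3 were lower and none was higher, where 26.8% of all tested genes were lower and 26.8% higher. CBS, which condenses homocysteine with serine (chr21:44473301-44496472, minus strand), had 5997, 5452 and 5715 reads in control and 3387, 2964 and 3676 in PELP1-KD. It was an abundant gene with a narrow spread, 5392 ± 146 and 3533 ± 120 normalized reads (SD, n = 3 each), and its log2 fold change was -0.61 (SE 0.0395, adjusted p = 1.046e-10, edgeR). CTH, which releases cysteine in the next step, had 206, 197 and 163 reads in control and 132, 111 and 117 in PELP1-KD, with a log2 fold change of -0.48 (adjusted p = 0.001801, edgeR).

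The 2 genes for the catalytic subunit of methionine adenosyltransferase differed. MAT2A, the form of most tissues and of proliferating cells (chr2:85766101-85772403, plus strand), had 8228, 8045 and 8015 reads in control and 6188, 5546 and 6397 in PELP1-KD. From 7633 ± 84.7 to 6399 ± 68.5 normalized reads (SD, n = 3 each), its log2 fold change was -0.25 (SE 0.0335, adjusted p = 2.63e-06, edgeR). MAT1A, the form of the adult liver (chr10:82031576-82049434, minus strand), had 1469, 1515 and 1480 reads in control and 1382, 1262 and 1538 in PELP1-KD, and its groups overlapped. It had 1403 ± 53.2 and 1475 ± 60.7 normalized reads (SD, n = 3 each), and its log2 fold change was 0.07 (SE 0.05, adjusted p = 0.241, edgeR) with an interval of -0.03 to 0.18. BHMT, which remethylates homocysteine with betaine, had a log2 fold change of 0.04 with an interval of -0.25 to 0.33. GNMT, a methyltransferase that is abundant in normal liver, had 2, 7 and 4 reads in control and 1, 1 and 2 in PELP1-KD and was not tested, and its ratio of summed reads was 0.345 (exact 95% interval 0.082 to 1.12).

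Glycine and proline each have 1 member, and these went in opposite directions. GLDC, the decarboxylase of the glycine cleavage system, was abundant, at 74.8 RPKM in control and 59.5 in PELP1-KD, with a log2 fold change of -0.33 (adjusted p = 2.576e-07, edgeR). Its counts were whole in 2 of 6 libraries, so shared reads enter them. PRODH, proline dehydrogenase, had 293, 298 and 274 reads in control and 356, 338 and 432 in PELP1-KD, with groups that did not overlap and a log2 fold change of 0.55 (adjusted p = 1.709e-05, edgeR). It had the second largest rise of the tested members after KYNU.

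Branched-chain amino acids lose their amino group mainly outside the liver, and the gene that differed most was BCAT1, the cytosolic aminotransferase, which adult liver has little of and many tumors express. BCAT1 (chr12:24962958-25102393, minus strand) had 3189, 3147 and 2945 reads in control and 1607, 1479 and 1535 in PELP1-KD. Every PELP1-KD value was below every control value, with 2916 ± 104 and 1635 ± 96.7 normalized reads (SD, n = 3 each) and a log2 fold change of -0.84 (SE 0.0481, adjusted p = 1.588e-11, edgeR). Its counts were whole in 3 of 6 libraries.

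BCAT2, the mitochondrial form (chr19:49298319-49314320, minus strand), had 1974, 1980 and 2117 reads in control and 1945, 1816 and 2158 in PELP1-KD. The groups overlapped after scaling, with 1909 ± 105 and 2089 ± 86.2 normalized reads (SD, n = 3 each), and the log2 fold change was 0.13 (SE 0.0489, adjusted p = 0.0314, edgeR). DESeq2 gave BCAT2 an adjusted p of 0.0655, and edgeR gave 0.0523 to 0.184 without control replicate 1 or 2 or PELP1-KD replicate 2 or 3. BCKDHA and BCKDHB encode the subunits of the dehydrogenase that commits the keto acids to breakdown. Their log2 fold changes were -0.11 (interval -0.23 to 0.01) and -0.12 (interval -0.26 to 0.02), and neither passed the test. With the replicate block BCKDHA had an adjusted p of 0.0108, and it was 0.0391 without control replicate 1 and 0.00522 without PELP1-KD replicate 3.

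The 5 isoenzyme pairs among the members each encode enzymes for the same reaction, so their ratio was computed within each library, where the scaling between libraries has no effect. The log2 ratio of reads per exon base of GPT to GPT2 was -3.66, -2.74 and -2.90 in control and -5.05, -4.05 and -4.68 in PELP1-KD, so the groups did not overlap. The mean difference was -1.49. For BCAT1 over BCAT2 the log2 ratio was -1.53, -1.55 and -1.75 in control and -2.50, -2.52 and -2.71 in PELP1-KD, a mean difference of -0.97, again without overlap. The ratio of MAT1A to MAT2A went the other way, from -2.62 ± 0.0389 to -2.30 ± 0.0553 (SD, n = 3 each), a difference of 0.33, and MAT2A remained the more abundant gene.

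GOT1 over GOT2 was lower by a log2 difference of -0.17 without overlap, and ARG1 over ARG2 overlapped between the groups with a difference of -0.10. With 3 libraries against 3 a two-sided exact permutation test cannot go below 0.1. That value was reached for GPT/GPT2, BCAT1/BCAT2, MAT1A/MAT2A and GOT1/GOT2, each with a Benjamini-Hochberg adjusted p of 0.125 over the 5 pairs, and ARG1/ARG2 gave an exact permutation p of 0.3. Within replicate numbers, the difference for BCAT1/BCAT2 was -0.967, -0.965 and -0.968, and that for GOT1/GOT2 was -0.167, -0.165 and -0.184. For GPT/GPT2 it was -1.39, -1.31 and -1.78, and for MAT1A/MAT2A 0.323, 0.273 and 0.381. In these 4 pairs of genes all 3 replicate numbers gave the same sign. Groups that do not overlap give this under any pairing, so it adds no further support. ARG1/ARG2 gave 0.0114, -0.267 and -0.0415. An exact permutation test that exchanges the signs of the 3 paired differences was added after the data had been seen. It cannot go below 0.25, which those 4 pairs of genes had to reach because their groups did not overlap. ARG1/ARG2 gave 0.5 in that exact test. Neither exact test can pass the threshold at this number of libraries.

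**Figure D3:**
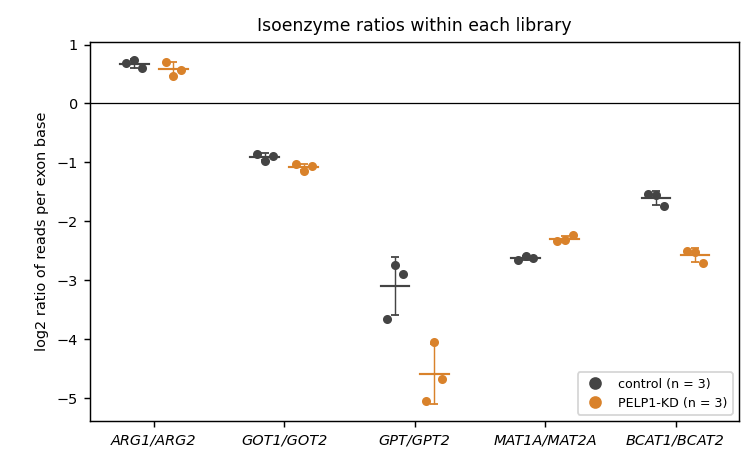
Log2 ratio of reads per exon base of the first gene to the second within each library, with the mean (line) and SD (bar) of control (n = 3, grey) and PELP1-KD (n = 3, orange). GPT/GPT2 and BCAT1/BCAT2 are lower in PELP1-KD, with mean differences of -1.49 and -0.97, MAT1A/MAT2A is higher by 0.33, and ARG1/ARG2 overlaps.

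Large differences were found among the members of low level. In control 16 tested members had at least 10 RPKM, and their log2 fold changes ran from -0.61 for CBS to 0.22 for HGD, with 10 lower, 2 higher and 0 past 2-fold. The other 18 had under 10 RPKM and ran from -2.23 for CPS1 to 1.06 for KYNU, with 11 lower, 3 higher and 6 past 2-fold. All tested genes showed the same contrast. Of those with at least 10 RPKM 1.6% were past 2-fold at an adjusted p below 0.05, and of those below it 12.4%. The plot of change against level shows both bands.

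**Figure D4:**
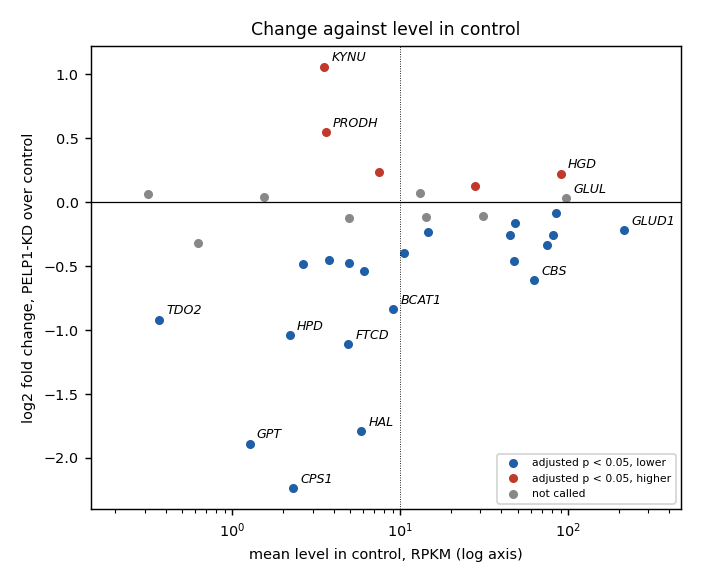
Log2 fold change of PELP1-KD over control against the mean level in control (RPKM, log axis) for the 34 tested members, coloured by the call, with a dotted line at 10 RPKM. All 6 members past 2-fold lie left of the line, and the 16 right of it stay between -0.61 and 0.22.

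A second list, chosen with earlier results of these data known, held 72 other enzymes and carriers of the same pathways, of which 69 were tested. Of these 35 were lower (50.7%) and 9 were higher (13%), and 25 did not pass the test, where 26.8% of all tested genes were lower and 26.8% higher. Their median log2 fold change was -0.14. At least 2-fold lower were 4 genes (5.8%), a share near the 4.79% of all tested genes, and 0 were 2-fold higher, against 2.85%. Of these, PRODH2, a hydroxyproline dehydrogenase, had 56, 55 and 58 reads in control and 4, 5 and 3 in PELP1-KD, with a log2 fold change of -3.61 (SE 0.319, adjusted p = 1.103e-08, edgeR). It passed the filter only through the control libraries. AGXT, the liver aminotransferase that detoxifies glyoxylate in peroxisomes, had 290, 243 and 275 reads in control and 21, 24 and 45 in PELP1-KD, with a log2 fold change of -2.996 (SE 0.17, adjusted p = 1.3e-11, edgeR). AGXT was at 12.4% of control and PRODH2 at 8.11%.

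ALDH4A1, which follows both PRODH and PRODH2, had 2367, 2163 and 2316 reads in control and 686, 650 and 783 in PELP1-KD. Its log2 fold change was -1.52 (SE 0.0528, adjusted p = 6.764e-15, edgeR), at a control level of 19.1 RPKM.

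The counts by pathway were uneven and came from small groups. They are to be read against the 26.8% of all tested genes that were lower and the 26.8% that were higher. In the glycine and proline group 9 of 14 tested related genes were lower and 2 were higher, and in the branched-chain group 9 of 17 were lower and 0 higher, led by MUT, methylmalonyl-CoA mutase, at -0.70. In the histidine and serine group 4 of 6 were lower and SDSL, a relative of SDS, was higher at 0.45. In the methionine and cysteine group 5 of 12 were lower and 4 were higher. Of the urea cycle carriers and the ornithine aminotransferase, only SLC25A15, the mitochondrial ornithine carrier, passed the test, at -0.28, and SLC25A13 and OAT had log2 fold changes of 0.03 and 0.01. In tryptophan breakdown 2 of 6 were lower (33.3%), near the share of all tested genes, and 1 was higher. Of the 4 lysine genes 2 were lower. IDO1, IDO2 and SLC25A2 were too low to test.

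**Figure D5:**
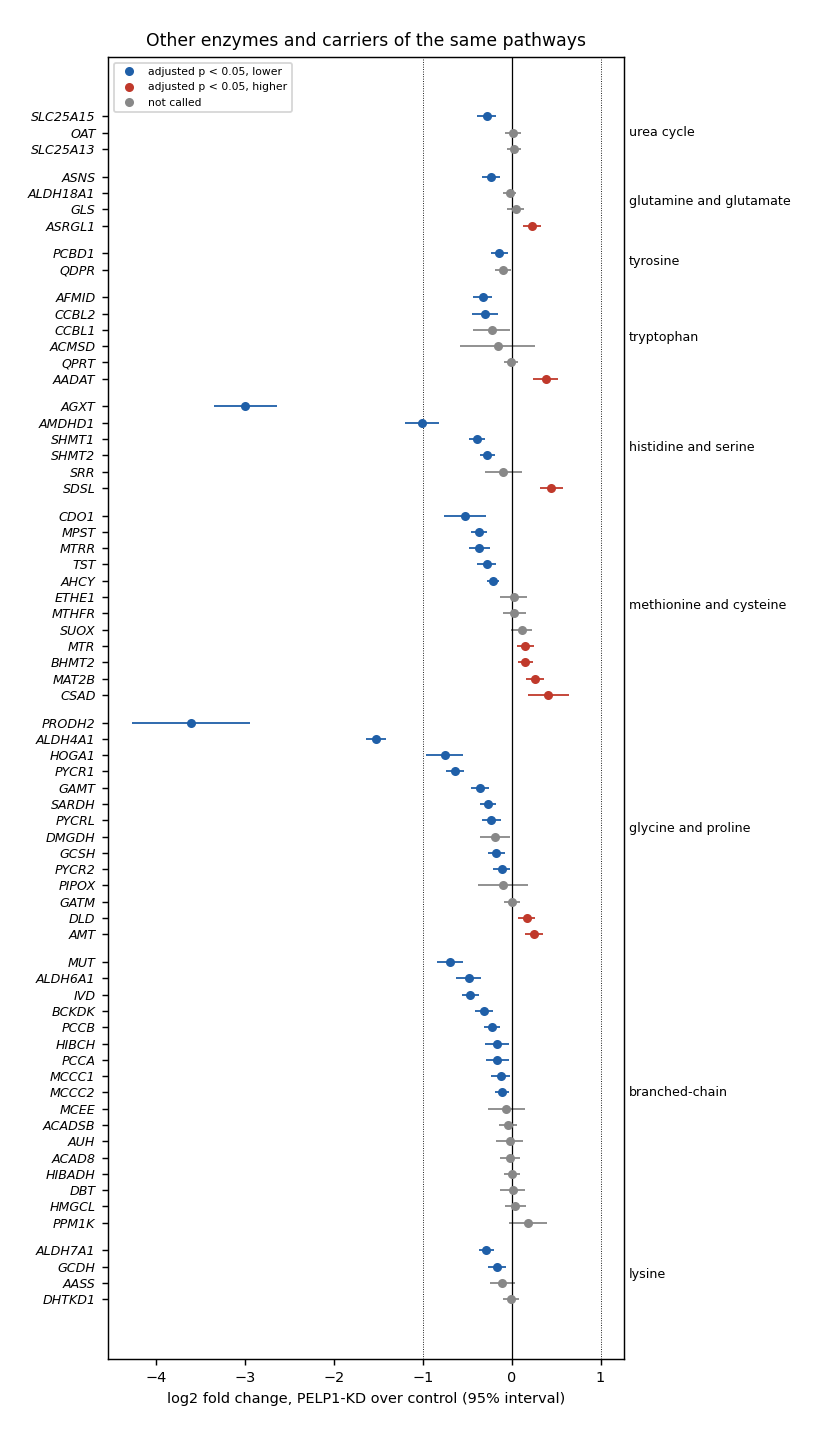
Log2 fold change of PELP1-KD over control, with 95% interval, for tested related genes, grouped by pathway, with dotted lines at a 2-fold change. PRODH2 (-3.61), AGXT (-2.996), ALDH4A1 (-1.52) and AMDHD1 (-1.01) lie left of the lower line and no gene lies right of the upper one.

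The label of the cells was checked against 12 hepatocyte markers, all of which were tested. Their summed level was 11350 to 11530 RPKM in control and 10400 to 10500 in PELP1-KD, so hepatocyte genes were abundant in both groups. Of the 12, 7 were lower and 4 were higher. ALB was lower at -0.61 and AFP, the fetal counterpart of albumin, was higher at 0.62, and HNF4A, a transcription factor of hepatocytes, was higher at 0.23. Of 18 markers of other cells 10 were tested, with 3 lower and 5 higher. The summed level of the 4 cholangiocyte markers was 384.8 to 401.9 RPKM in control and 627.8 to 671.8 in PELP1-KD, mostly KRT19. That of the 5 fibroblast or stellate markers was 9.69 to 10.75 and 15.99 to 16.27, with LUM and COL1A2 higher at log2 fold changes of 0.92 and 0.51 and PDGFRB lower at -2.13. That of the 5 blood markers was 112.6 to 119.8 and 64.84 to 65.77, with LYZ and CD14 lower at -1.55 and -0.98 and CD68 higher at 0.48. The 4 endothelial markers summed to 0.4499 to 0.5103 RPKM in control and 0.4336 to 0.4792 in PELP1-KD. CDH5 and KDR were at 0 in every library, and PTPRC had at most 5 reads. The part of these shifts in the results above was not tested.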

How the data were processed

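RNA-seq of Hep3B cells was analysed in 3 control and 3 PELP1-KD libraries, grouped by their labels. The tables that the authors deposited hold, for each library, estimated counts of reads by gene that were not normalized. Per the file headers, featureCounts counted reads by strand over the exons of each hg19 gene with a minimum mapping quality of 2, and shared reads with several places or genes as fractions, so 10.6% to 13.3% of the genes had counts that were not whole. The submitters' processing notes name HISAT2, whereas the methods of the study name TopHat2 and HTSeq. The sources also conflict on RNA extraction (RNeasy or TRIzol), on single or paired reads, and on mRNA selection or rRNA removal. No member shared exon bases with another gene on its strand.

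Counts were rounded and tested with edgeR 4.0.16 (R 4.3.3; TMM, filterByExpr, robust glmQLFit, glmQLFTest), with Benjamini-Hochberg adjustment over 14537 genes. The median SE of a log2 fold change was 0.063. SE was taken as the size of the log2 fold change divided by the root of F. Normalized reads are reads over the TMM library size relative to its geometric mean, and RPKM uses the counted exon length. Intervals of ratios of summed reads are exact binomial. The method was tested on simulated data.

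The members and lists were chosen with earlier results of these data known. Given in full were PELP1, members past an adjusted p of 0.05 and 1.5-fold, the 5 isoenzyme pairs, and related genes past 2-fold. Values of some listed genes are not reported here. Genes outside this rule were named after their values had been seen. The alternatives were 3 other normalizations, DESeq2 1.42.0, 2 filters, a threshold of 0.01, the replicate block and each library left out.

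Deviations from the group mean correlated between libraries with the same replicate number, at 0.336, 0.247 and 0.666 over 6370 genes. Control replicate 2 with PELP1-KD replicate 1 had 0.418. Replicates differed by more than sampling noise (chi-square per degree of freedom 1.93 to 7.05).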

Additional observations from a re-analysis of the deposited data

How the results depend on the processing

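Over all the alternatives, between 18 and 22 members were called lower, 5 to 7 were past 2-fold and 29 to 38 related genes were lower. With the replicate block, 22 members were lower, 5 were higher and 6 were past 2-fold, and 8828 genes were called in all against 7788. BCKDHA and PELP1 were called with the block and not without it, and no other member's call changed. The count of members called higher was 5, and 3 with DESeq2 or at an adjusted p below 0.01. It was 3 to 5 when 1 library was left out, and 3 without control replicate 1 or 2 or PELP1-KD replicate 2 or 3. The cause was not tested.

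Of 454 values of single genes under an alternative, 420 kept their direction and their side of the threshold, 25 lost the call, 6 gained it and 3 changed sign. The last were BHMT, with -0.076 without control replicate 1 and a range up to 0.194 over the libraries left out, and GLS2, with -0.044 without control replicate 2, -0.016 without PELP1-KD replicate 2 and a range up to 0.131. Both were uncalled throughout. Scaling to total reads moved the median of all genes to 0.021, with 3578 genes lower and 4182 higher against 3889 and 3899.

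Depth limits OTC, KMO, UROC1, SDS, GNMT, TDO2 and GLS2, whose reads were at most 31 in any library.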
